A study of Homo sapiens with 4 samples.

Results

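The genes of the E2F transcription factors, their dimer partner TFDP1 and the RB family of pocket proteins were followed in an ATAC-seq study of the leukaemia line Kasumi-1, which derives from acute myeloid leukaemia and carries the RUNX1-RUNX1T1 fusion. In ATAC-seq a transposase inserts adapters into open chromatin, so the reads at a site measure its accessibility. The 10 genes (E2F1, E2F2, E2F3, E2F4, E2F6, E2F8, RB1, RBL1, RBL2 and TFDP1) were chosen by name, and every peak that the authors' first deposited table assigns to them was taken. This gave 14 peaks of the 20556 in that table, and 9 of the 14 overlapped a peak of the authors' second deposited table, which holds 13577. The 4 libraries came from Kasumi-1 cells treated with CRISPR/Cas9, 2 with the sgNT guide and a genotype given as WT, and 2 with a guide against SETD8 and a genotype of SETD8 knockout. SETD8 is now named KMT5A and is the enzyme that monomethylates lysine 20 of histone H4. The labels do not say whether the cells were clones or a pool, or whether both libraries of a group were grown apart.

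E2F proteins bind DNA as dimers with DP proteins and switch genes of DNA replication and mitosis on or off through the cell cycle. E2F1, E2F2 and E2F3 activate, E2F4 mainly represses together with the pocket proteins p107 (RBL1) and p130 (RBL2), E2F6 represses without pocket proteins through Polycomb-type complexes, and E2F8 is an atypical repressor that needs no DP partner. RB1 encodes the retinoblastoma protein, which holds the activators silent until cyclin-dependent kinases phosphorylate it. Several of these genes carry E2F sites in their own promoters. KMT5A belongs to the same cycle, since its protein is destroyed during S phase.

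The stretches just before the starts of the member genes are shown because the peaks described next lie on them. They run 5′ to 3′ along the gene in RefSeq assembly GRCh38.p14, which has the coordinates of the hg38 peaks. Capitals mark matches on either strand to an E2F motif written TTTCCCGC, TTTGGCGC or TTTCGCGC, or to the related TTTCGCGG, which was added after the sequences had been read. E2F4 and the downstream E2F3 start are shown as promoters without a match.
E2F1, chr20:33686386-33686515, minus strand: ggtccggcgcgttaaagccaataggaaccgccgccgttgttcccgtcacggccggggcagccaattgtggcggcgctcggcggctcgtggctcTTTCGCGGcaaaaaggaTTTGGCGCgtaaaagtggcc
E2F2, chr1:23531234-23531363, minus strand: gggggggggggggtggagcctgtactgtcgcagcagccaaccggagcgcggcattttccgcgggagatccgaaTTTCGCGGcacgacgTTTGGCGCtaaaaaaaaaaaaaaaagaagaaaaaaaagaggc
E2F3 upstream start, chr6:20401749-20401878, plus strand: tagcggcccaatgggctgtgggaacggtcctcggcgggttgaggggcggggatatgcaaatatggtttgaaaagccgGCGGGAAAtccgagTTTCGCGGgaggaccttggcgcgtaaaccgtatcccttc
E2F3 downstream start, chr6:20403484-20403613, plus strand: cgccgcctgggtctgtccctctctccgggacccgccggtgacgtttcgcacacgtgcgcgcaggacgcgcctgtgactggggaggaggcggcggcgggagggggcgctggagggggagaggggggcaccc
RBL1, chr20:37095998-37096127, minus strand: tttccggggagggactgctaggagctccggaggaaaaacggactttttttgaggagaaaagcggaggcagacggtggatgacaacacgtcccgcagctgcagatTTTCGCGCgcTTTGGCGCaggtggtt
TFDP1, chr13:113584558-113584687, plus strand: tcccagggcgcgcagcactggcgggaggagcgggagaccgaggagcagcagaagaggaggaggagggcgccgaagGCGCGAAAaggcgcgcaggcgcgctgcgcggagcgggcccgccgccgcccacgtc
E2F4, chr16:67192025-67192154, plus strand: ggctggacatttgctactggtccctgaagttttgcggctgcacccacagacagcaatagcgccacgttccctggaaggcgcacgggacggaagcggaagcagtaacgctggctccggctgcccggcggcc

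At least one of the first 3 E2F spellings was present in 5 of the 11 RefSeq promoters of the members (250 bases before to 50 after a start), those of E2F1, E2F2, RBL1, TFDP1 and the upstream start of E2F3. Of all 35116 RefSeq promoters of that length, 2.74% hold one. RBL1 had a pair, at -26 and -16 from its start, and E2F1 and E2F2 had TTTGGCGC at -20 and -42. The E2F3 match, at -53, and that of TFDP1, at -120, lie on the opposite strand. Positions are counted from the RefSeq start, which for TFDP1 (113584753) lies downstream of the end of the printed stretch, 113584687. The added spelling TTTCGCGG occurred at -37 in E2F1, -57 in E2F2 and -39 at the upstream E2F3 start, and not at the downstream E2F3 start. Of all promoters, 0.416% hold it. The spelling was picked from the member sequences, so its presence in them is not a test. Among all pairs of such member stretches, E2F1 and the upstream start of E2F3 shared the longest run, the 12 letters TTGGCGCGTAAA. Only these 2 of the 35116 promoters hold it on either strand. The run was picked from these promoters for its length, so its rarity is not a test. A CHR element (TTTGAA or TTCGAA), a site of repression by cell cycle complexes, was found at E2F3 and RBL2, 2 of 11 against 16.4% of all promoters. The NF-Y letters CCAAT were found in 3 of 11 (34.6% of all) and the SP1 letters GGGCGG in 7 of 11 (45% of all). No entry for E2F8 was matched, and the single RB1 entry lies 5′ of a start far inside the gene, so it is not printed. A match describes the letters and is not evidence of binding.

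**Figure D1:**
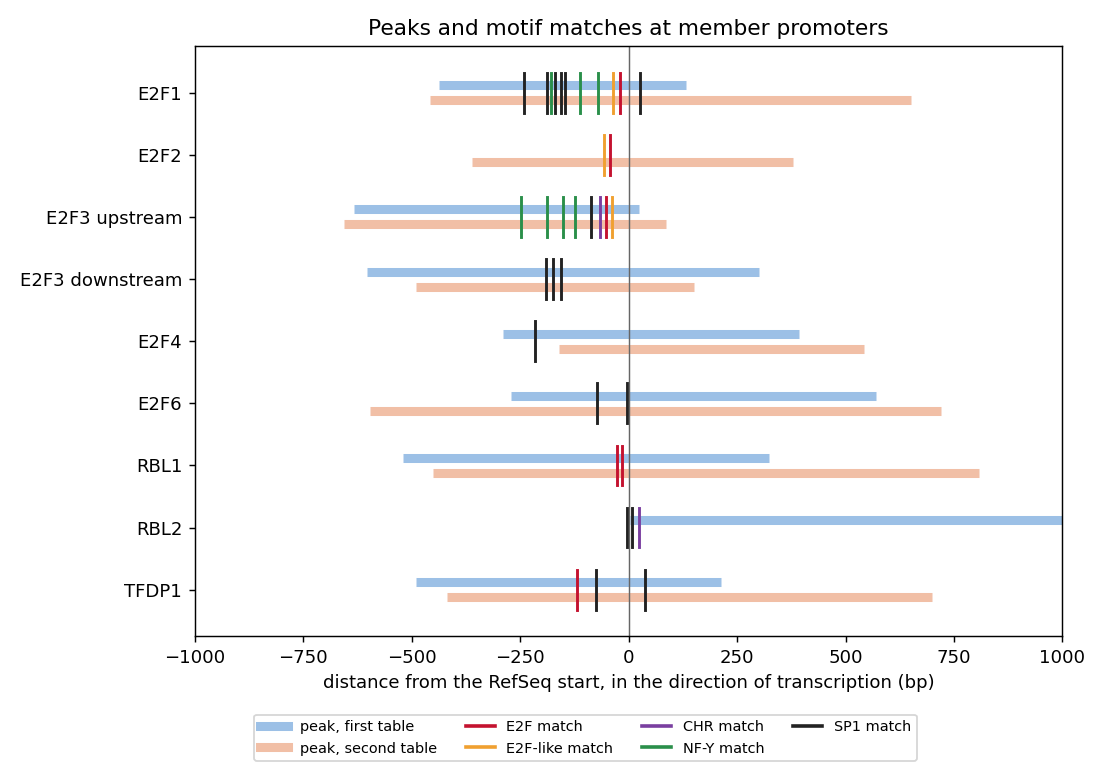
Peaks of the first table (blue) and second table (orange) around 9 RefSeq starts of 8 member genes, against the distance from the start in bp along the direction of transcription; vertical ticks are motif matches. The E2F matches of E2F1, RBL1, TFDP1 and the upstream E2F3 start lie inside the peaks of both tables, that of E2F2 only inside a second-table peak, and the RBL2 peak begins 3 bp after its start.

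The tables differ in what they hold. The authors' second deposited table gives levels in knockout and control, 1 library per group. These were read as the libraries titled sgSETD8#2 and sgNT#2 and are called replicate 2 here. The labels do not say whether #2 marks a replicate or another guide. The columns of the first table are not named by library. Levels below are normalised reads of bulk cells, in which fewer open cells and less opening per cell cannot be told apart. The second table rests on 2091322 knockout and 5345251 control reads in peaks, so its counting error is set mainly by the knockout library. Its levels are these reads times 1.0 in the knockout and 0.918 in the control, so the difference in reads carries into the levels. Whether that difference comes from the cells or from library quality was not tested. Nearly all peaks had lower normalised levels in the knockout, with a median log2 fold change of -0.87 over the first table (quartiles -1.17 and -0.53) and -1.23 over the second (quartiles -1.43 and -1.01). A member is therefore also given relative to the median of its table, which removes this shared shift. No peak of the first table passed the authors' adjusted p of 0.05 (0%), and 0 members did. The lowest adjusted p over all its peaks was 0.731. Unadjusted p-values under 0.05 belonged to 329 first-table peaks, and 0 of these were member peaks. Whether that test had replicates is not stated. The second table compares 1 library per group, so its deposited p-values rest on no replicate spread and cannot show whether a peak changed. The KMT5A promoter peak stood at -0.82 in the first and -1.45 in the second of the authors' deposited tables, which does not test whether the coding sequence was cut. Of 9 myeloid progenitor marker genes fixed for the cell line, 7 had a promoter peak in the first table, with CD33 and MPO missing. Of the 12 markers for other cell types, EPOR, CD3D, EPCAM and COL1A1 had one in the first table and only EPOR in the second. Of a pair of genes tied to the fusion, POU4F1 had one in the first table, RUNX1T1 had none, and neither had one in the second.

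Seen over all member peaks, the family followed the shared shift. The median of the 14 peaks was -0.74 by the authors' first deposited table, against -0.87 for all its peaks. That of the 9 overlapping peaks was -1.13 by the authors' second deposited table, against -1.23. A log2 fold change of -1 or lower was found at 3 of 14 member peaks, where 38.9% of all first-table peaks had one. Among the second-table peaks it was found at 7 of 9, against 76.1% of all peaks. With the strongest promoter peak taken for each gene, 3 of 10 genes (first table) and 6 of 7 (second table) were at or below -1, against 43.4% and 83.1% of all genes with a promoter peak. These shares lie near or below those of all peaks. For RB1 and E2F2 the first-table promoter peak lies inside the gene, and the peaks over their starts are not among those counted.

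**Figure D2:**
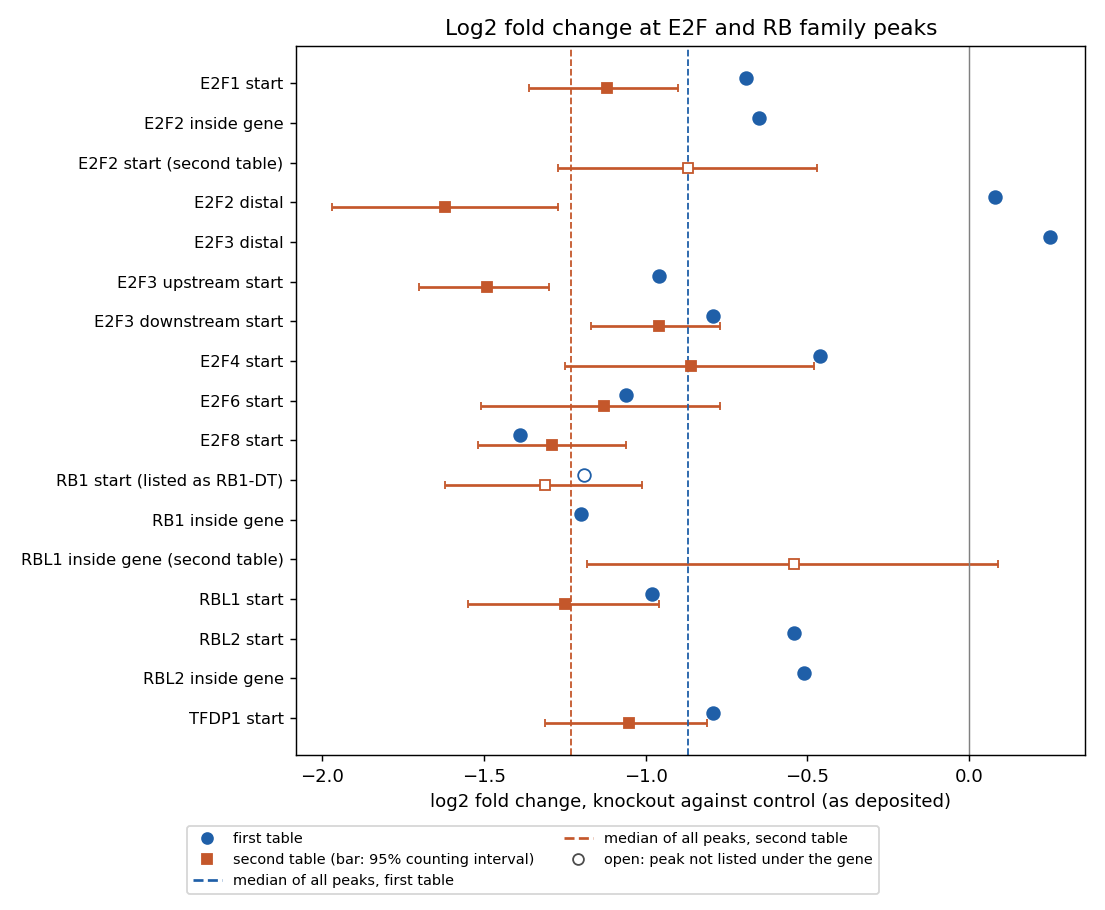
Log2 fold change of each member peak as deposited (x axis), circles for the first table and squares for the second, whose bars are 95% counting intervals; dashed lines are the medians of all peaks, and open symbols are peaks not listed under the gene. Most squares lie around -1.23 with intervals that cross it, while E2F8 is the lowest circle at -1.39 and the distal E2F2 and E2F3 peaks are the only circles above 0.

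Among the activators, E2F1 had a single peak, chr20:33686253-33686821, over its start, with a mean level of 327 normalised reads per kb in the first table (median of all peaks 228). Its fold change was -0.69 there (adjusted p of 0.735, as deposited by the authors), 0.18 above the table's median. In the authors' second deposited table the overlapping peak, chr20:33685733-33686843, held 228 reads in the knockout and 498 normalised reads in the control. That is a fold change of -1.12 (95% counting interval -1.36 to -0.90), or 0.11 above the median, and the interval includes the median. The E2F1 promoter thus stood close to the typical peak in both tables.

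E2F3 has a pair of starts 1800 bp apart in the annotation, each under its own peak. The upstream start makes the longer E2F3a protein and the downstream one E2F3b. The upstream peak, chr6:20401247-20401904, was the most accessible of all member sites in the first table, at 1336 normalised reads per kb, at the 97.7th percentile of all peaks by level. The downstream peak, chr6:20403012-20403915, was next, with 637 per kb. The second table gave the upstream peak 280 knockout reads and 792 normalised control reads, and the downstream peak 309 and 605. Per kb, the upstream site was the higher of the pair in the control library (1064 against 945) and the lower in the knockout library (376 against 482).

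The fold changes of the 2 sites were -1.49 and -0.96 in the authors' second deposited table. Their counting intervals were -1.70 to -1.30 and -1.17 to -0.77, which do not overlap and lie on either side of the median. The difference of upstream minus downstream was -0.53 (95% exact counting interval -0.81 to -0.25). This difference compares sites within the same libraries, so the scaling between libraries cancels, but it rests on 1 library per group and on counting error only. In the first table the values were -0.96 and -0.79, a difference of -0.17 with the same sign and no error that the table allows. The pair was singled out after its values were seen. E2F motif matches were found upstream only. The GC content of the upstream promoter was 58.3% and that of the downstream one 77.3%, against a median of 58.7% over all RefSeq promoters.

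At E2F2 the tables place the promoter peak differently. Its nearest peak listed in the authors' first deposited table, chr1:23528093-23528666, lies 2567 bp into the gene at -0.65 (168 normalised reads per kb), and no peak covers the start. A peak over the start, chr1:23530853-23531593, is in the second table alone, with 80 knockout reads and 146 normalised control reads, and the authors' deposited fold change is -0.87 (counting interval -1.27 to -0.47). This is a weak promoter, at the 19.9th percentile by level.

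Of the 14 member peaks, 12 lay below 0 in the first table, and the others were the distal peaks listed under E2F2 and E2F3. No other member peak was distal, so distal position and gene cannot be told apart here. Positive values were also found outside the family, since 0.25 lies at the 96.0th percentile of all first-table fold changes. The site chr1:23539755-23540291, at -8522 bp from the E2F2 start, stood at 0.08 in the authors' first deposited table (adjusted p of 0.962), which is 0.95 above the median. In the second it stood at -1.62 (counting interval -1.97 to -1.27) from 90 knockout and 276 normalised control reads, or -0.39 relative to the median. Thus the same site ranked at the 93.8th percentile of fold changes in the first table and the 11.2th in the second. The site chr6:20319851-20320259, at -81620 bp from the upstream E2F3 start, stood at 0.25 in the authors' first deposited table (adjusted p of 0.833) and joined no peak of the second table. It is weak, with 43.4 normalised reads and an 8.7th percentile of level, and weak peaks of that table had less negative fold changes. After the median of peaks of like level was subtracted it stood at 0.55, against 1.12 relative to all peaks. Both sites are listed under the closest gene, and their targets were not tested.

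**Figure D3:**
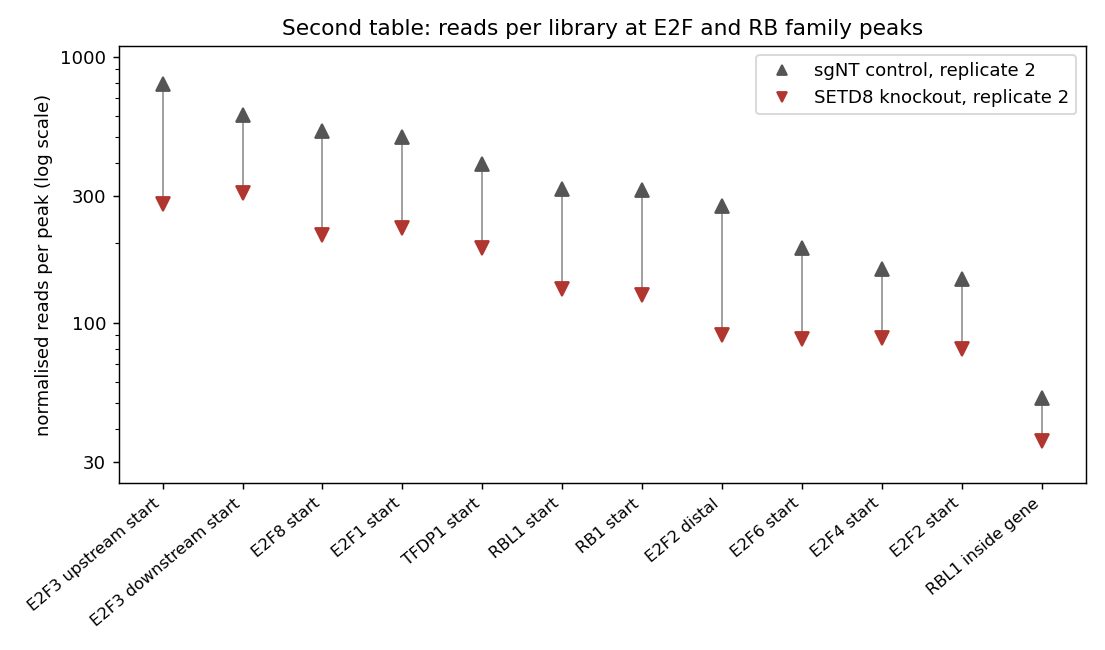
Normalised reads in the 2 libraries of the second table (y axis, log scale) at 12 peaks, 11 at or in member genes and 1 distal to E2F2, ordered by the control level; lines join the control (grey) and knockout (red) value of a peak. The control is above the knockout at every peak shown, from 792 against 280 at the upstream E2F3 start to 52.3 against 36 inside RBL1.

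The repressor E2F4 had the least negative promoter value of the 10 genes in the authors' first deposited table and of the 7 joined genes in the second. Its peak, chr16:67191866-67192547, stood at -0.46 (adjusted p of 0.784), 0.41 above the median, with 160 normalised reads per kb. The overlapping peak of the second table held 88 knockout reads and 160 normalised control reads, a fold change of -0.86 with a counting interval of -1.25 to -0.48, or 0.37 above the median. That interval just reaches the median, so counting error alone could place the site there. The promoter has no E2F, CHR or NF-Y match. It lies near other genes, and a further peak at the end of E2F4, listed under ELMO3, stood at -1.01 in the authors' first deposited table.

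E2F6, which recruits a Polycomb-type complex, had a peak over its start, chr2:11465590-11466433, at -1.06 in the authors' first deposited table (adjusted p of 0.731), -0.19 relative to the median. Its second-table peak held 87 knockout reads and 191 normalised control reads, at -1.13 (counting interval -1.51 to -0.77), 0.10 above the median. Its neighbourhood on chromosome 2 was lower than the rest of the genome. The other peaks within 2.5 Mb had a median of -1.29 by the first table and of -1.42 by the second, and relative to them E2F6 stood 0.23 and 0.29 higher. Whether the region sets the E2F6 value was not tested.

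E2F8 had the most negative promoter of the members in the authors' first deposited table. Its broad peak, chr11:19240635-19241654, stood at -1.39 (adjusted p of 0.731), which is -0.52 relative to the median and at the 12.5th percentile of all peaks. The value was also low against its 33 neighbours within 2.5 Mb (-0.46) and against peaks of like level (-0.40). The overlapping second-table peak held 215 knockout reads and 526 normalised control reads. Its fold change there was -1.29 (counting interval -1.52 to -1.06), only -0.06 relative to the median, so the second table places E2F8 with the typical peak.

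TFDP1, the DP partner of the E2Fs, had a peak over its start, chr13:113584262-113584966, at -0.79 in the authors' first deposited table (257 normalised reads per kb), 0.08 above the median. The second table gave it 191 knockout and 396 normalised control reads and stood at -1.05 (counting interval -1.31 to -0.81), 0.18 above the median. Both values are close to those of all peaks.

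For RB1, the only peak listed under the gene is not at its promoter. That peak, chr13:48446514-48446927, lies 1686 bp past an annotated start inside RB1 and stood at -1.20 (adjusted p of 0.731) in the authors' first deposited table. It was the weakest, with 34.5 normalised reads and a 4.4th percentile of level. Relative to peaks of like level it stood at -1.10, against -0.33 relative to all peaks, since weak peaks of that table had less negative values. It joined no peak of the second table. RB1 itself begins at position 48303751, under the peak chr13:48303170-48304310, which the authors' annotation lists under the divergent transcript RB1-DT.

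That peak over the RB1 start stood at -1.19 in the authors' first deposited table (adjusted p of 0.731). This is -0.32 relative to the median and -0.10 relative to its neighbours. The overlapping second-table peak held 127 knockout and 315 normalised control reads, at -1.31 (counting interval -1.62 to -1.01), or -0.08 relative to the median. ATAC-seq reads carry no strand, so RB1 and RB1-DT cannot be told apart at this shared site.

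The other pocket protein genes differed from RB1 in what was listed. RBL1, which encodes p107 and has the pair of E2F matches, had a peak over its start, chr20:37095673-37096517, at -0.98 in the authors' first deposited table, or -0.11 relative to the median. The second table gave it 134 knockout and 320 normalised control reads, at -1.25 (counting interval -1.55 to -0.96), or -0.02 relative to the median. A weak peak inside RBL1, chr20:37071388-37071952, was in the second table alone, with 36 knockout and 52.3 normalised control reads. Its fold change of -0.54 has a counting interval of -1.18 to 0.09, the one interval here that includes 0.

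RBL2, which encodes p130, had its start peak, chr16:53434474-53435587, at -0.54 in the authors' first deposited table (adjusted p of 0.759), 0.33 above the median. A second RBL2 peak, chr16:53482209-53482612, lies 2663 bp past an annotated start inside the gene and stood at -0.51. Both exceeded their neighbours, by 0.39 and 0.42, and both were below the median level (110.7 and 56.9 normalised reads against 142). RBL2 had no peak in the second table, so its values have no second measurement.

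The counting interval of the fold change left out the table's median at 3 of the 9 member peaks of the second table, against 33.4% of all its peaks. These 3 were the upstream E2F3 start and the distal E2F2 site below the median, and the downstream E2F3 start above it. The order of the 10 strongest promoters by fold change in the authors' first deposited table ran from E2F8 (-1.39), RB1 (-1.20, inside the gene), E2F6 (-1.06) and RBL1 (-0.98) to E2F3 (-0.96), TFDP1 (-0.79), E2F1 (-0.69), E2F2 (-0.65, inside the gene), RBL2 (-0.54) and E2F4 (-0.46). No replicate spread can be had from that table, so whether neighbours in this order differ was not tested. The only available measure of spread is the difference between the tables. Over the 11203 first-table peaks that joined the second, the median-centred value of the second minus the first had a central 95% range of -0.85 to 0.98. The members' differences ran from -0.17 to 0.46 apart from the distal E2F2 site, at -1.34. The 10 promoters ran from -0.52 to 0.41 relative to the first table's median. These are values of a single table and not differences between tables, so their span cannot be judged by that range. The promoter peaks of E2F2, RB1 and RBL2 in this order joined no second-table peak. Whether the tables share libraries is not stated, so the spread between the tables may be too small. Start peaks of promoters with an E2F match (-0.98 to -0.69 in the first table, without E2F2, whose start has no peak there) and the other start peaks of E2F3, E2F4, E2F6 and RBL2 with a RefSeq sequence (-1.06 to -0.46) overlapped in their values.

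The wider pathway was described through 5 lists of other genes, each gene by its strongest promoter peak, and 0 genes of any list passed the authors' adjusted p of 0.05. The strongest peak was picked in each table separately. For CCND3, CDKN1A and RRM2 the first and second table thus give different sites that do not overlap. Of the other E2F and DP genes, 2 of 3 had a promoter peak, E2F7 and TFDP2. By the authors' first deposited table they stood at -1.57 and -0.89, and by the second at -1.34 and -1.31. E2F7, the other atypical repressor, was thus more negative than any member promoter in the first table. The MuvB core joins E2F4 and p130 in quiescent cells. The list of MuvB and DREAM partners, which also holds MYBL2 and FOXM1, had 4 of 7 genes listed. Their median was -0.695, from LIN54 at -1.13 to LIN37 at -0.25. The second table gave a median of -1.175, with LIN54 at -1.09 and LIN37 at -1.30.

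E2F6 partners of the PRC1.6 complex had 7 of 10 genes listed in the authors' first deposited table and a median of -0.97, from RNF2 (-1.56) to CBX3 (-0.54). They had a median of -1.285 over 6 genes in the second, with CBX3 at -1.16 and RNF2 the highest of the 6. Cyclins, kinases and inhibitors upstream of RB had medians of -0.91 and -1.17 over 11 of 15 genes. CCNE1, the cyclin that drives entry into S phase, was lowest in the first table at -1.51 and stood at -0.93 in the second, and CCNA2, at -0.53 and -1.47, did the opposite.

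Classical E2F targets had 14 of 20 genes listed in each of the authors' deposited tables, with medians of -1.075 and -1.405. Relative to the medians of all peaks these are -0.205 and -0.175, and 10 and 11 of the 14 lay below those medians. Of all genes with a promoter peak, 5690 of 10187 and 4426 of 8379 lay below them. The targets' peaks were also stronger, with median log2 levels of 8.5 and 8.46 against 7.88 and 8.13 for all such genes. Weak peaks of the first table had less negative values, and the lists were not adjusted for level. MCM7, a subunit of the replicative helicase, was lowest in the first table at -1.32 and stood at -1.34 in the second, and MCM5, another subunit, was highest at -0.49 and stood at -1.18. At or below -1 were 9 of 14 target promoters in the first table and 14 of 14 in the second, against 43.4% and 83.1% of all genes with a promoter peak. The members' own medians over the strongest promoters were -0.875 and -1.13, and those of all such genes -0.93 and -1.25.

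**Figure D4:**
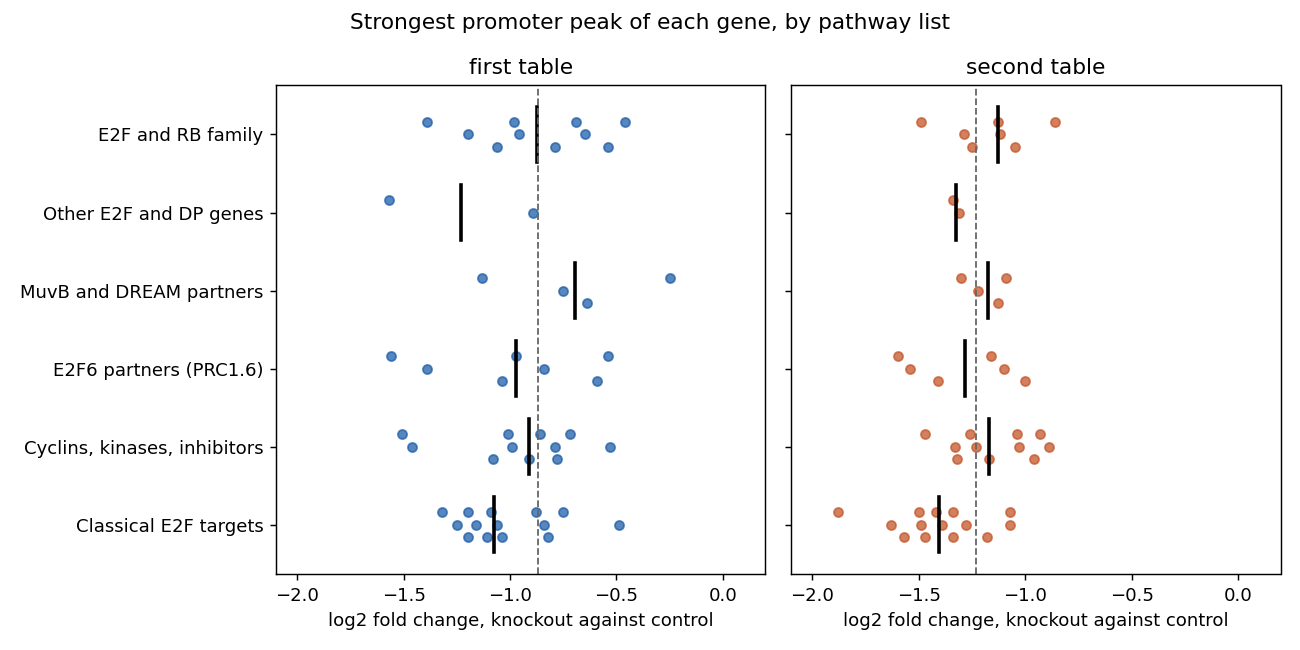
Log2 fold change of the strongest promoter peak of each gene (x axis) for the members and 5 pathway lists, in the first table (left) and the second (right); black bars are list medians and dashed lines the medians of all peaks. The members' medians, -0.875 and -1.13, lie near the dashed lines, and those of the classical E2F targets, -1.075 and -1.405, to the left of them.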

How the data were processed

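ATAC-seq libraries of Kasumi-1 cells, 2 sgNT and 2 SETD8 knockout, were grouped by their titles and genotype labels. Per the submitters' processing notes, the reads were handled with Bowtie2, cutadapt, MACS2 2.1.2, ChIPseeker, deepTools and SAMtools on build hg38. Duplicate removal, the shift for the transposase cut, the scaling and the settings of the statistical test are not given in the sources used here. There are 2 peak tables, deposited by the authors. Per the file headers, the second gives log2 levels, a log2 fold change, and raw and adjusted p-values. The columns of the first deposited table are numbered and were identified by place, range and arithmetic, and 2 columns of its levels, not named by library, were not used. No count table of all 4 libraries was used, so no test of this work's own was run.

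Weak log2 levels of the second table (180 knockout and 141 control values below 4.5) were all within 0.005 of whole reads, times 0.918 in the control. Reads were recovered from these steps and rounded. Exact (Clopper-Pearson) 95% intervals of the read ratio, and a conditional exact interval for the E2F3 pair, cover counting error only. Reads without molecular identifiers are not independent molecules. First-table depth per library is unknown. Peaks were joined by an overlap of at least 1 bp, and second-table peaks took the gene of the peak they overlapped most. Promoter means within 3 kb of a start, as annotated. Level adjustment subtracted the median of 20 level bins, and regional adjustment the median of at least 10 other peaks within 2.5 Mb. Of the 10 members, 9 matched the RefSeq promoters (GRCh38.p14). All member peaks were named, and per pathway list the lowest and highest first-table promoters. The members and lists were chosen with earlier results of these data known. Scripts were checked on made-up data with known shifts. Python 3.11.15, numpy 2.4.6, pandas 2.3.3, scipy 1.17.1 and matplotlib 3.10.9 were used.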

Additional observations from a re-analysis of the deposited data

How the results depend on the processing

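For the strongest promoter peaks the first-table median of -0.875 became -0.005 when centred on all peaks, 0.07 with the level bins subtracted and 0.12 with the neighbouring peaks subtracted. The second-table median of -1.13 became 0.10, 0.09 and 0.002 (the last without E2F3, which had too few neighbours). The number of member peaks at or below -1 was 3 in the first table, and was 9 at a fold of 0.58 (log2), 0 at 1.5 and 0 after centring. In the second table it was 7, and was 1 at 1.5 and 0 after centring. Averaging all promoter peaks of a gene, keeping peaks within 1 kb of a start or at or above the median level, the 0.58 threshold in the second table, a stricter overlap and looser p thresholds changed no direction and no count by over 1.5 times. Leaving out a replicate was not run, because the tables hold no values for it. No paired analysis was possible because the first table does not name its libraries and the second holds 1 pair. Depth limits the weaker second-table peaks, with 36 to 90 knockout reads, most.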
